A study of Mus musculus with 8 samples.

Results

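The genes described here are the molecular chaperones and the folding genes of the endoplasmic reticulum that a muscle array carries. They were chosen by gene symbol alone: the CCT chaperonin subunits and TCP1, heat shock proteins, DNAJA, DNAJB and DNAJC proteins, FKBP and cyclophilin isomerases, BAG and prefoldin subunits, and the reticulum genes CALR, CANX, P4HB, XBP1, ATF4 and DDIT3. This gave 51 genes on 120 spots, of 2922 named genes on 9984 spots. They fall into 6 chaperonin genes, 1 prefoldin gene, 12 heat shock genes, 10 DNAJ genes, 8 prolyl isomerase genes, 11 reticulum genes and 3 BAG genes. HSPBP1, an HSP70 cofactor, entered through its symbol, and DNAJB12, a J protein of the reticulum membrane, was counted with the DNAJ genes.

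RNA came from C2C12, a mouse myoblast line grown in DMEM with glutamine and fetal bovine serum. Control cells (MBN) received plain medium, and treated cells (MBC) received conditioned medium of the human pancreatic carcinoma line CAPAN-1, so both are the same line and differ by medium, and against 0 h also by time. At matched hours the comparisons were MBC14 over MBN14 and MBC24 over MBN24, and against the start they were MBC14 over MBN0 and MBC24 over MBN0, where the number is the hour. Each of the 4 had an array A, on which Cy5 marked the MBC RNA, and a dye-swapped array B, on which Cy3 marked it. The array is described as a human array, so its spots carry human symbols and report the mouse counterpart only through cross-hybridisation.

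Chaperones bind unfolded stretches of other proteins and release them in cycles driven by ATP. The ring-shaped chaperonin TRiC, built from the CCT subunits and TCP1, folds actin and tubulin, and prefoldin delivers clients to it. HSP70 proteins work with J proteins, which start their ATP cycle, and with BAG proteins and HSPBP1, which release the nucleotide. In the endoplasmic reticulum, HSPA5 (BiP), HSP90B1 (GRP94), the lectin chaperones CALR and CANX and the disulfide isomerase P4HB fold secreted and membrane proteins, and the transcription factors XBP1, ATF4 and DDIT3 (CHOP) carry the unfolded protein response to the nucleus.

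XBP1, ATF4, ATF6 and heat shock factor act on short elements in the promoters of chaperone genes, and promoters that hold such an element are shown here because the values of those genes are set side by side below. Promoters of 300 bases were taken from RefSeq (mouse build GRCm38.p6), and 43 of the 51 genes had at least 1, with 55 promoters in all. The endoplasmic reticulum stress element was searched on both strands as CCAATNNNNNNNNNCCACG, with no overlap between its matches. It lay in 39 of 32851 promoters (0.119%), among them those of 4 genes of the set, Calr, Canx, Hsp90b1 and Hspa5. The capitals mark the match, which in Calr and in the second Hsp90b1 site reads on the opposite strand.
Hspa5, chr2:34772000-34772068, plus strand: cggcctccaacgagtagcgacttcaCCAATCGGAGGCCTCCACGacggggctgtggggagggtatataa
Hsp90b1, chr10:86705508-86705681, minus strand: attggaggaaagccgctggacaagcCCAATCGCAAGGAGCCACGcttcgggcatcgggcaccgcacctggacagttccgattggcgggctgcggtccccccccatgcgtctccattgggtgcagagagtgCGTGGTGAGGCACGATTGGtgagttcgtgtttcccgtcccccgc
Calr, chr8:84847050-84847118, minus strand: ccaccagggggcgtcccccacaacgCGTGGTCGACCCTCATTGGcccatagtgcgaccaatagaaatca
Canx, chr11:50325775-50325843, minus strand: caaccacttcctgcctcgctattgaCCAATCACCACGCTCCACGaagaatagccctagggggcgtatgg

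The heat shock element, the site of heat shock factor, was searched as GAANNTTCNNGAA on both strands. It was found in 198 promoters (0.603%), those of Dnajb6, Hspd1 and Hspe1 among them. Hspd1 and Hspe1, the mitochondrial chaperonin and its lid, are neighbours transcribed in opposite directions, and the matches counted for them are the same bases between their start sites. The sequence on the Hspe1 side holds overlapping matches on both strands, and the capitals cover both.
Hspe1, chr1:55088034-55088101, plus strand: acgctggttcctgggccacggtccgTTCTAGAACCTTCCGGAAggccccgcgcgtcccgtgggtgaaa
A match is a run of letters, not a measured site of binding.

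The deposited values are signed scores with no stated scale or direction, so every value below is a difference between the channels in score units, not a level and not a fold. Arrays A and B of a pair correlated below 0 as deposited in all 4 pairs over all genes, at -0.32 and -0.28 for the matched 14 h and 24 h and at -0.13 and -0.27 for 14 h and 24 h over 0 h. Over the 51 folding genes alone the correlations were -0.46 and -0.32 for the matched hours, and 0.10 and -0.15 over 0 h. In MBC14 over MBN0, the pair above 0 there, the labelling text of array B also names the dyes opposite to the dye field. By the correlations over all genes, the scores of all 4 pairs were taken as Cy5 over Cy3, with the sign of array B turned. The labels do not settle this, and the values under the other reading, in which both arrays are taken as conditioned over control and array B is kept, stand beside the results. A shift in one of these readings is by construction a difference between the dye orientations in the other. A positive value is likely higher in conditioned medium, from the labels' Test and Reference channels, and all signs would turn if the ratio ran the other way.

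Arrays A and B carry the same RNA pair, so their SD (n = 2 arrays) is technical, and a single comparison has no test. The size rule asked for a mean of at least 1 in size with both arrays at 0.5 or more the same way. The SD of the scores ran from 1.34 to 1.58 over the 8 arrays, and the paired spots of the folding genes correlated at 0.40 to 0.85 within an array. The only test, limma across all 2922 genes with Benjamini-Hochberg adjustment, asked for a shift shared by MBC14 over MBN14 and MBC24 over MBN24 (n = 2 values a gene), which share no RNA. Separate cultures are not named, so its p-values reflect only how far these values differ. In bulk RNA, fewer cells of a kind and less RNA per cell cannot be told apart.

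Of the 51 folding genes 5 were called at the matched hours, in both directions. With array B turned, the genes that rose were 3, the chaperonin subunits CCT3 and CCT2 and the J protein DNAJC7, against 3.08% of all genes. HSP90B1, the HSP90 of the reticulum, and PPIE, a cyclophilin of the nucleus, fell, against 2.12% of all genes. At an unadjusted p below 0.05 stood 14 of 51 genes (27.5%), beside 22.8% of all genes. The median matched-hour mean of the 51 genes was -0.24, beside -0.05 over all genes, and 20 of the 51 lay above 0. With array B kept, in the conditioned-over-control reading, 0 of the 51 genes and 0% of all genes were called by limma, and at an unadjusted p below 0.05 stood PPIA alone, against 3.11% of all genes.

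**Figure D1:**
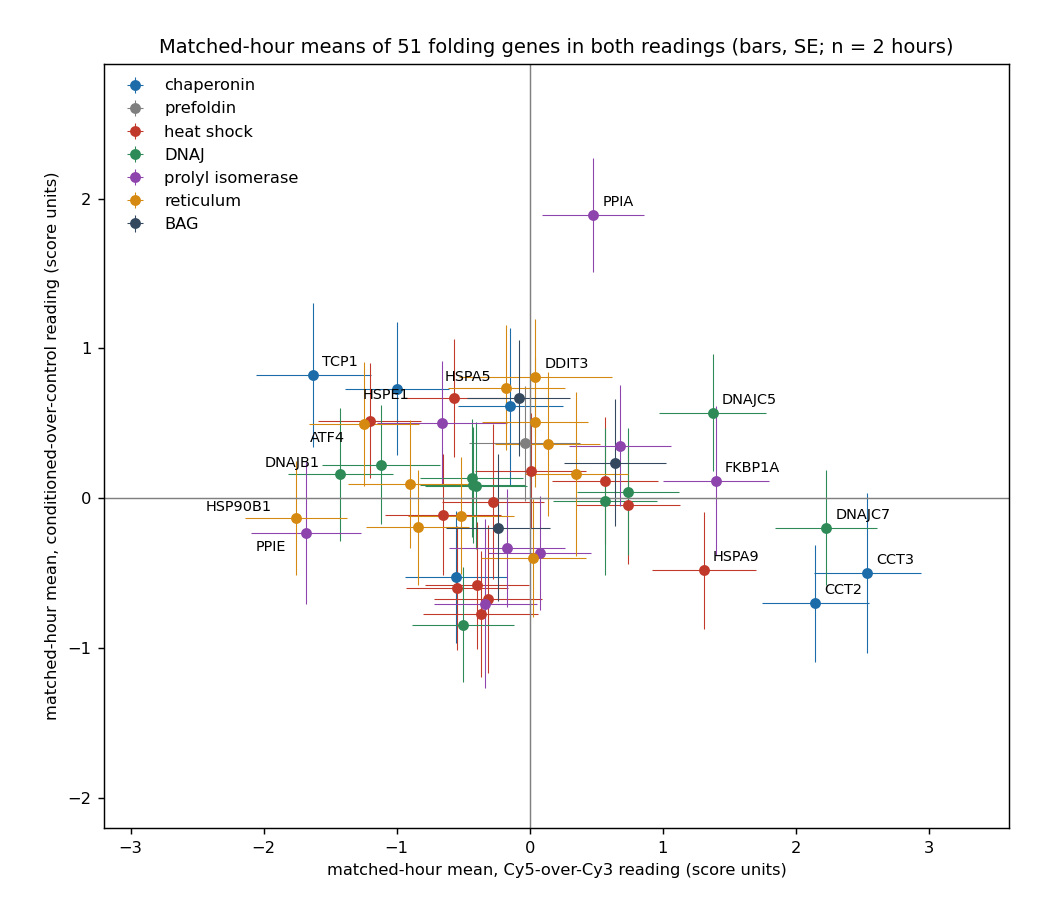
Matched-hour mean of each of the 51 folding genes in score units, in the Cy5-over-Cy3 reading (horizontal) and in the conditioned-over-control reading (vertical), coloured by class, with bars of 1 SE (n = 2 hours). CCT3, DNAJC7 and CCT2 lie farthest right at 2.54, 2.23 and 2.15, HSP90B1 and PPIE farthest left at -1.75 and -1.68, and PPIA stands alone at the top at 1.89.

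The chaperonin class split. CCT3 (the gamma subunit) scored 3.31 on array A and 2.52 on turned array B in MBC14 over MBN14, and 0.77 and 3.55 in MBC24 over MBN24. CCT2 (beta) scored 1.20 and 2.29 at 14 h, and 1.69 and 3.40 at 24 h. Both genes were above 0 on all 4 arrays. Their matched-hour means were 2.54 ± 0.40 (SE, n = 2; limma adjusted p = 0.00993) for CCT3 and 2.15 ± 0.40 (SE, n = 2; limma adjusted p = 0.0212) for CCT2. TCP1, the alpha subunit of the same ring, lay below 0 on all 4 arrays, at -0.90 and -1.15 at 14 h and -0.71 and -3.75 at 24 h. Its mean of -1.63 ± 0.43 (SE, n = 2) did not pass the limma test (adjusted p = 0.0618). The other subunits CCT5, CCT7 and CCT8 had means of -0.997, -0.15 and -0.55.

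In the conditioned-over-control reading CCT3 and CCT2 turned to -0.50 and -0.70 and TCP1 to 0.82, none of them called. Against 0 h, neither CCT2 nor CCT3 passed the size rule. CCT2 scored -0.54 and 0.57 in MBC14 over MBN0, and 3.55 and -0.05 in MBC24 over MBN0, where array A alone was high. CCT8 (theta) was the lowest folding gene in MBC14 over MBN0, at -3.78 and -1.22, and was at -2.77 and -0.32 in MBC24 over MBN0. CCT5 (epsilon) was low there too, at -1.20 and -2.59 in MBC14 over MBN0. The subunits of this ring, which are held in equal number in the complex, thus gave means of both signs in each comparison. PFDN5, the only prefoldin subunit measured, stayed under 1 in size on every array.

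The 12 heat shock genes gave no call. Highest at the matched hours was HSPA9, the HSP70 of mitochondria, with 0.74 and 1.34 at 14 h and 0.91 and 2.23 at 24 h. Its mean was 1.31 ± 0.39 (SE, n = 2; limma adjusted p = 0.0877). HSPA1A, the stress-inducible HSP70, followed at 0.74 and was above 0 on all 4 arrays. HSPE1, the lid of the mitochondrial chaperonin, was lowest, at -0.66 and -1.48 at 14 h and -0.72 and -1.96 at 24 h, with a mean of -1.20 ± 0.38 (SE, n = 2; limma adjusted p = 0.108). Its partner HSPD1, whose promoter faces that of Hspe1 across the stretch printed above, had a mean of -0.37. DNAJB6, the other gene with a heat shock element, was at -1.12, so all 3 means were below 0, none of them called. Below 0 lay 31 of the 51 genes and 1560 of all 2922 genes. With array B kept, HSPE1, HSPD1 and DNAJB6 were at 0.52, -0.77 and 0.23. HSPD1 scored -2.19 on array A and 0.21 on turned array B at 14 h, so its arrays lay on opposite sides. The next lowest was HSPB6, a small heat shock protein of muscle, with a mean of -0.65.

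HSPA8, the constitutive HSP70, was low on array A at 14 h (-2.18) and not on turned array B (0.69), and passed the size rule downward in MBC14 over MBN0 at -2.07 and -1.61. HSPB6 passed downward in both 14 h comparisons, with means of -1.29 ± 0.31 over MBN14 and -1.70 ± 0.11 over MBN0 (SD, n = 2 arrays). These comparisons share the MBC14 RNA. CCT5 and ATF4 passed downward in both as well, and the share of all genes doing so was not counted. At 24 h HSPB6 was at -0.02 and -0.68 over MBN24 and MBN0. The cytosolic HSP90 genes HSP90AA1 and HSP90AB1 had matched-hour means of -0.54 and -0.40. HSPB2, another small heat shock protein of muscle, was higher by the size rule in both comparisons with 0 h in the conditioned-over-control reading only, at 1.57 and 1.05.

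Among the J proteins DNAJC7, which bridges HSP70 and HSP90, rose as well. It scored 1.91 and 2.53 at 14 h, and 2.16 and 2.32 at 24 h. All 4 arrays lay on the same side and close to each other, with a mean of 2.23 ± 0.38 (SE, n = 2; limma adjusted p = 0.0152). In the other reading it was -0.20, and over MBN0 it was at -0.56 and -0.93. DNAJC5, the cysteine string protein of vesicles, was also above 0 on all 4 matched arrays, with 1.36 and 0.62 at 14 h and 2.54 and 0.99 at 24 h. Its mean of 1.38 ± 0.40 (SE, n = 2) did not pass (limma adjusted p = 0.0824).

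DNAJB1, the main HSP40 of the cytosol and a classic heat shock gene, was lowest of the J proteins. It scored -2.12 and -1.34 at 14 h and -0.41 and -1.83 at 24 h, with a mean of -1.42 ± 0.39 (SE, n = 2; limma adjusted p = 0.0689). Over MBN0 the means lay the other way, at 1.29 ± 1.98 at 14 h and 1.55 ± 0.95 at 24 h (SD, n = 2 arrays). The latter passed the size rule, while at 14 h the arrays lay on opposite sides, at -0.11 and 2.69. With array B kept, DNAJB1 was at 0.16 at the matched hours and at -1.40 and -0.67 over MBN0. DNAJB6, which holds back aggregation and is mutated in a limb-girdle muscular dystrophy, was at -1.80 ± 0.72 at 14 h and -0.44 ± 0.08 at 24 h (SD, n = 2 arrays). DNAJC8, a J protein linked to splicing, was the only gene higher in MBC14 over MBN0, at 1.31 ± 0.30 (SD, n = 2 arrays).

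The prolyl isomerases held the only folding gene past the size rule in all 4 comparisons in either reading. PPIA, cyclophilin A, the cytosolic target of cyclosporin, scored as deposited 2.39 and 1.31 on arrays A and B of MBC14 over MBN14, and 2.34 and 1.52 in MBC24 over MBN24. Against 0 h it scored as deposited -1.89 and -0.61 at 14 h, and -2.49 and -1.25 at 24 h. Both arrays of each pair thus lay on the same side as deposited, the reverse of the correlation over all genes, and turning array B made the pairs cancel. BAG1 and CANX also had both arrays on the same side as deposited in all 4 comparisons. Their matched-hour means in the conditioned-over-control reading were 0.67 and 0.36. In the conditioned-over-control reading PPIA passed the size rule in all 4 comparisons, as 3 of 2922 genes did (0.103%), upward against the matched hour (1.85 and 1.93) and downward against 0 h (-1.25 and -1.87). Its matched-hour mean there was 1.89 ± 0.38 (SE, n = 2), with a limma p of 0.003 unadjusted and 0.995 adjusted. In the Cy5-over-Cy3 reading it was 0.48 ± 0.38 (SE, n = 2; limma adjusted p = 0.506).

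PPIE, a cyclophilin of the spliceosome, scored -3.07 and -1.23 at 14 h and -0.76 and -1.67 at 24 h. It was below 0 on all 8 arrays, as was P4HB, and no folding gene was above 0 on all 8. Over all genes 164 of 2922 lay on a single side of 0 on all 8 arrays (5.61%), beside 2 of the 51 (3.92%). The matched-hour mean of PPIE was -1.68 ± 0.41 (SE, n = 2; limma adjusted p = 0.0487), next to the threshold, and -0.23 in the other reading. FKBP1A, the rapamycin-binding protein that steadies the ryanodine receptor, had a mean of 1.40 ± 0.40 (SE, n = 2; limma adjusted p = 0.0758), from 1.10 and 2.40 at 14 h and 1.93 and 0.16 at 24 h. FKBP3, a nuclear isomerase, was at 0.26 at 14 h and -1.58 at 24 h. FKBP8 of the outer mitochondrial membrane was at -2.12 in MBC24 over MBN0.

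Of the 11 reticulum genes, HSP90B1 alone passed the test. Its scores were -1.85 and -1.48 at 14 h and -1.92 and -1.77 at 24 h, all 4 below -1. The mean was -1.75 ± 0.38 (SE, n = 2; limma adjusted p = 0.0342). HSPA5, the HSP70 that works beside it and shares its stress element, did not do the same: it scored 0.83 and 0.15 at 14 h and 0.29 and -1.98 at 24 h, with a mean of -0.18. Calreticulin (CALR) and calnexin (CANX), the other genes whose promoters hold that element, had matched-hour means of 0.03 and 0.14. In MBC24 over MBN0 the 4 genes were at 0.96 (HSP90B1), -1.39 (HSPA5), -2.26 (CALR) and 0.24 (CANX). The genes that share the element thus lay on both sides of 0, and HSP90B1 was at -0.13 at the matched hours in the conditioned-over-control reading.

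The transcription factors of the unfolded protein response also gave no call. ATF4 scored -1.61 and -1.82 at 14 h and 0.12 and -1.66 at 24 h, with a mean of -1.24 ± 0.41 (SE, n = 2; limma adjusted p = 0.117). XBP1 was below 0 on all 4 arrays, between -0.50 and -1.26, with a mean of -0.84 ± 0.39 (SE, n = 2; limma adjusted p = 0.237). DDIT3 was at 2.37 and 0.32 at 14 h and at -0.67 and -1.85 at 24 h, so it lay above 0 on both arrays at 14 h and below 0 on both at 24 h. ATF4 passed the size rule downward in both 14 h comparisons, with -1.64 and -0.75 over MBN0. With array B kept, the matched-hour means were 0.50 for ATF4, -0.19 for XBP1 and 0.81 for DDIT3. ATF6, HYOU1 and genes of the PDIA series had no spot with a single symbol.

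PPIB and P4HB lay below 0 on all 4 arrays with MBC24 RNA in the Cy5-over-Cy3 reading. So did CCT8, PPIE, HSPB1, PFDN5 and HSP90AA1 of other classes, and the share of all genes doing so was not counted. PPIB, the cyclophilin of the reticulum, scored -1.18 and -2.26 over MBN24 and -1.71 and -1.53 over MBN0. P4HB, the disulfide isomerase that is also a subunit of collagen prolyl hydroxylase, scored -1.14 and -0.53 over MBN24 and -1.26 and -1.29 over MBN0. These comparisons share the MBC24 RNA. At 14 h PPIB and P4HB were near 0 over MBN14, with means of -0.08 and -0.20. In the other reading PPIB was at 0.54 and -0.09, and P4HB at -0.30 and 0.02, over MBN24 and MBN0. HSPA13, an HSP70-like protein of microsomes, was higher, at 1.01 ± 0.09 in MBC24 over MBN0 (SD, n = 2 arrays), and DNAJB9, the J protein of HSPA5, was at 0.53 and 0.66 over MBN24 and MBN0. The BAG cofactors did not pass the size rule in the Cy5-over-Cy3 reading: BAG1, BAG3 and BAG6 had matched-hour means of -0.08, -0.24 and 0.64.

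**Figure D2:**
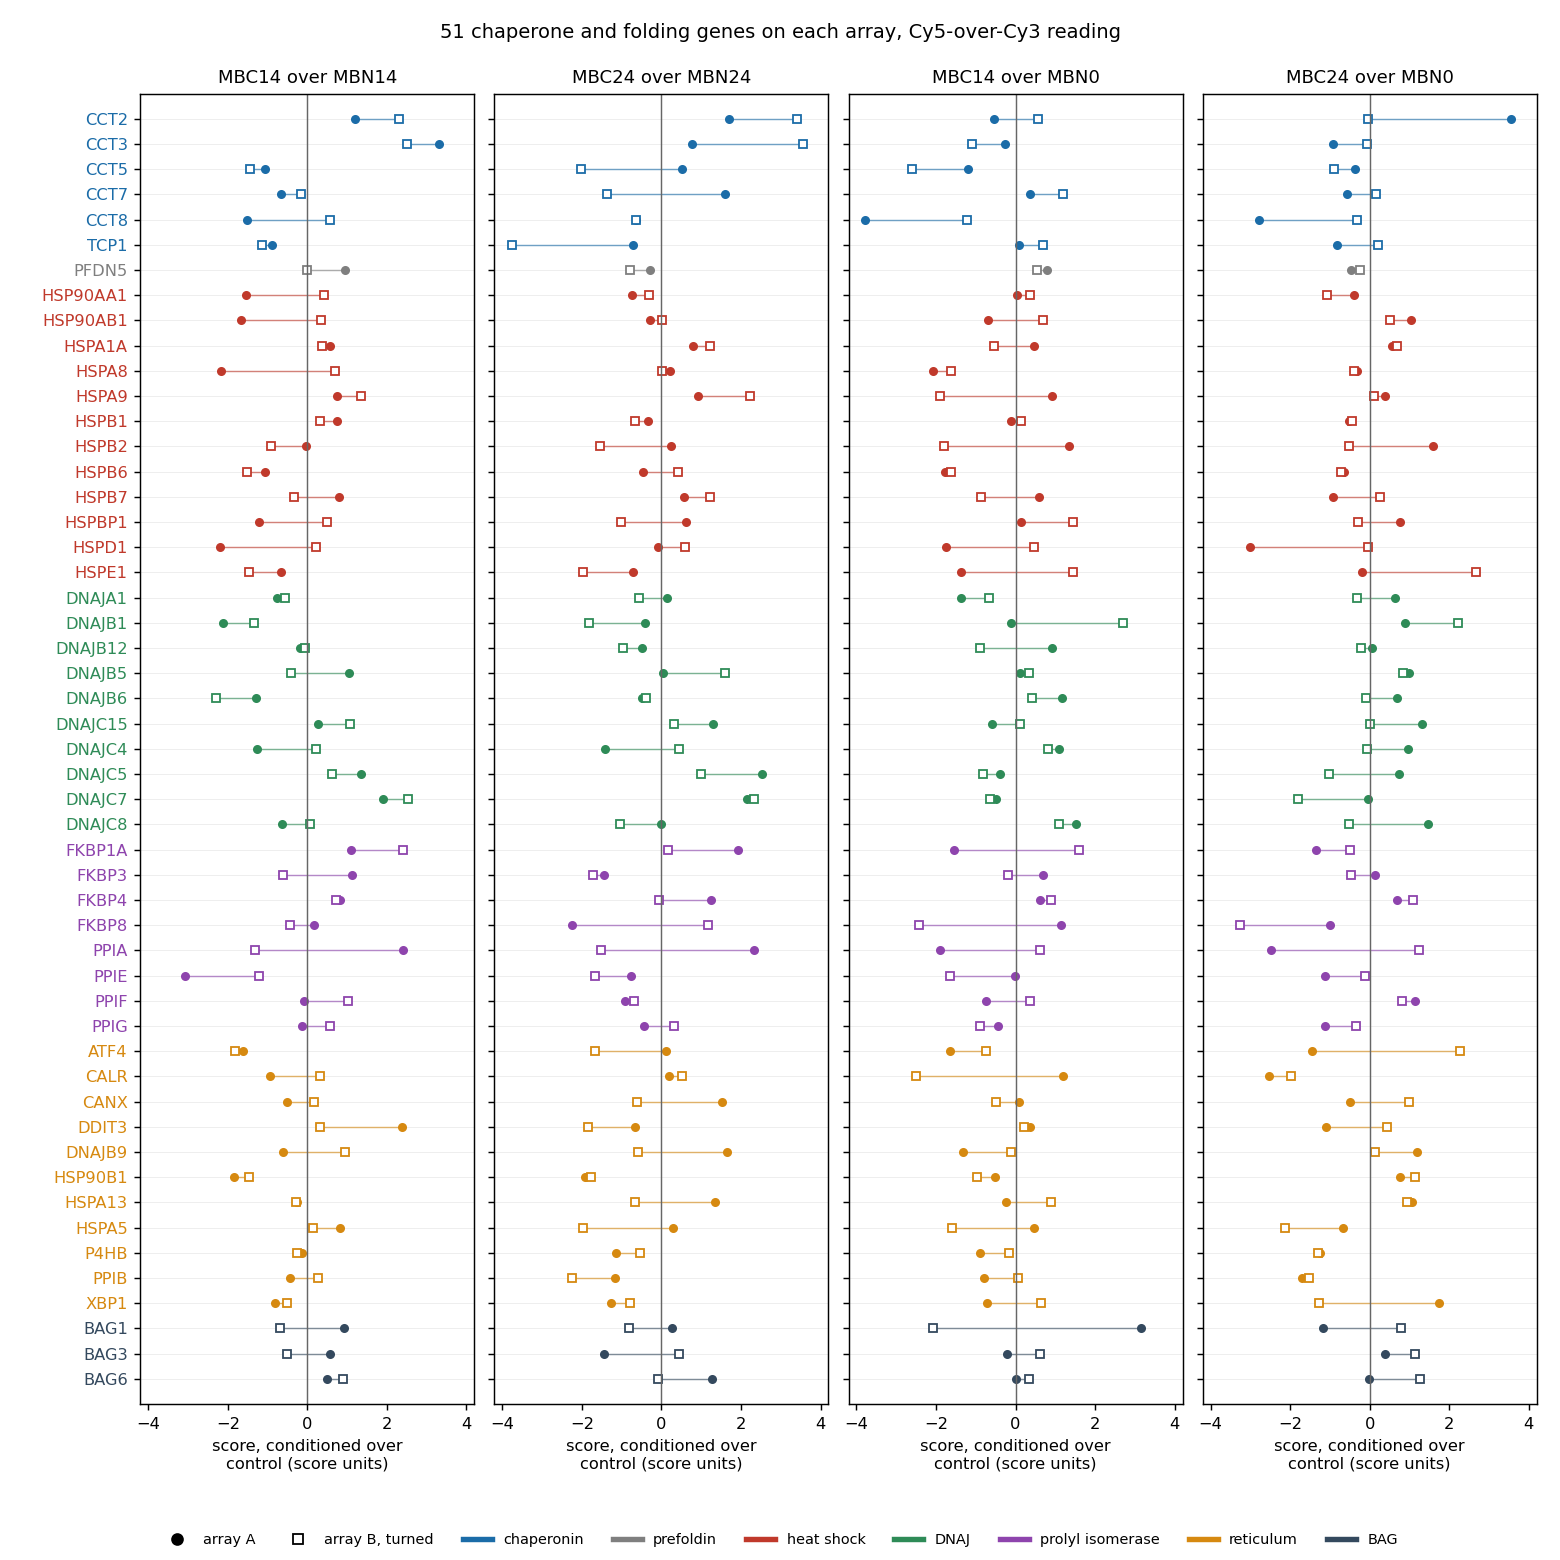
Score of each of the 51 folding genes (rows, coloured by class) on array A (filled circles) and turned array B (open squares) in the 4 comparisons, in score units, with a line joining the arrays of a pair. CCT2, CCT3 and DNAJC7 lie right of 0 on both arrays at both matched hours, and HSP90B1 and PPIE left of it. PPIA, BAG1 and CANX show their arrays on opposite sides in every comparison.

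Counts by the size rule were set beside the share of all genes past the same rule. In MBC14 over MBN14 there were 5 higher (9.80%, beside 9.1% of all genes) and 9 lower (17.6%, beside 10.8%). In MBC24 over MBN24 there were 6 higher (11.8%, beside 7.94%) and 8 lower (15.7%, beside 9.69%). In MBC14 over MBN0 only DNAJC8 was higher (1.96%, beside 7.29%) and 6 were lower (11.8%, beside 8.38%). In MBC24 over MBN0 DNAJB1 and HSPA13 were higher (3.92%, beside 8.38%) and 5 were lower (9.80%, beside 10.9%). At the matched hours more of the folding genes were lower than higher, as was also so for all genes, and no test was made of these shares.

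Past the rule in the same direction at both matched hours were CCT2, CCT3, HSPA9 and DNAJC7 upward (7.84%, beside 3.76% of all genes) and TCP1, HSPE1, PPIE and HSP90B1 downward (7.84%, beside 2.91%). None of the 51 genes passed in more than 2 of the 4 comparisons, while over all genes 95 passed in 3 (3.25%) and 20 in 4 (0.685%). Of the 51, 22 passed in no comparison (43.1%), beside 49.3% of all genes. Across genes, the matched comparisons correlated at 0.67 over the 51 genes and 0.53 over all genes in this reading, and at 0.14 and -0.06 in the other. In this reading MBC14 over MBN14 correlated with MBC24 over MBN0 at -0.06 over the 51 genes and 0.14 over all genes. MBC24 over MBN24 and MBC14 over MBN0 correlated at -0.08 and 0.03. Genes are not independent replicates, and these arrays share their dye layout.

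In the conditioned-over-control reading the genes past the rule in a comparison were others by construction. Both arrays must lie the same way, so no gene can pass in both readings of a comparison. In MBC14 over MBN14 PPIA was higher (beside 3.56% of all genes) and CCT8 and HSPA8 lower (2.81%). In MBC24 over MBN24 CCT5, CCT7, PPIA, CANX, DNAJB9 and HSPA13 were higher (11.8%, beside 3.7%), 3 of them genes of the reticulum, and FKBP8 was lower (2.33%). In MBC14 over MBN0 HSPA9, HSPB2, FKBP8, CALR and BAG1 were higher (9.80%, beside 5.61%), BAG1 most with 3.16 and 2.07 as deposited, and HSPE1, FKBP1A and PPIA were lower (5.88%, beside 4.72%). In MBC24 over MBN0 HSPB2 and XBP1 were higher (3.92%, beside 3.11%) and PPIA and ATF4 lower (3.92%, beside 3.73%). Of the 51 genes PPIA alone passed in the same direction at both matched hours in this reading (1.96% upward), beside 8 of all genes upward (0.274%) and 5 downward (0.171%).

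Medians of the set and of its classes depended on the reading. For all 51 genes they were -0.13, -0.28, -0.14 and -0.13 in the order used above (matched 14 h, matched 24 h, 14 h over 0 h, 24 h over 0 h), beside -0.04, -0.11, -0.04 and -0.03 over all genes. In the other reading they were -0.09, 0.23, -0.13 and 0.02. The class farthest from 0 was the reticulum class in MBC24 over MBN24, with a median of -0.84 and 4 of 11 genes (HSP90B1, PPIB, DDIT3 and XBP1) past the rule downward. The same class had a median of 0.59 in the conditioned-over-control reading, so its direction at 24 h rested on the reading. Heat shock genes had medians of -0.52 at 14 h and -0.08 at 24 h over the matched control, DNAJ genes -0.21 and -0.33, chaperonin genes -0.44 and -0.26, and prolyl isomerases 0.37 and -0.30. Over 0 h the medians at 14 h and 24 h were -0.53 and 0.24 for reticulum genes and -0.09 and -0.04 for heat shock genes. For DNAJ genes they were 0.12 and 0.37, for chaperonin genes -0.34 and -0.40, and for prolyl isomerases -0.42 and -0.62. In MBC24 over MBN0, 4 of the 11 reticulum genes were past the rule downward and 1 upward.

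**Figure D3:**
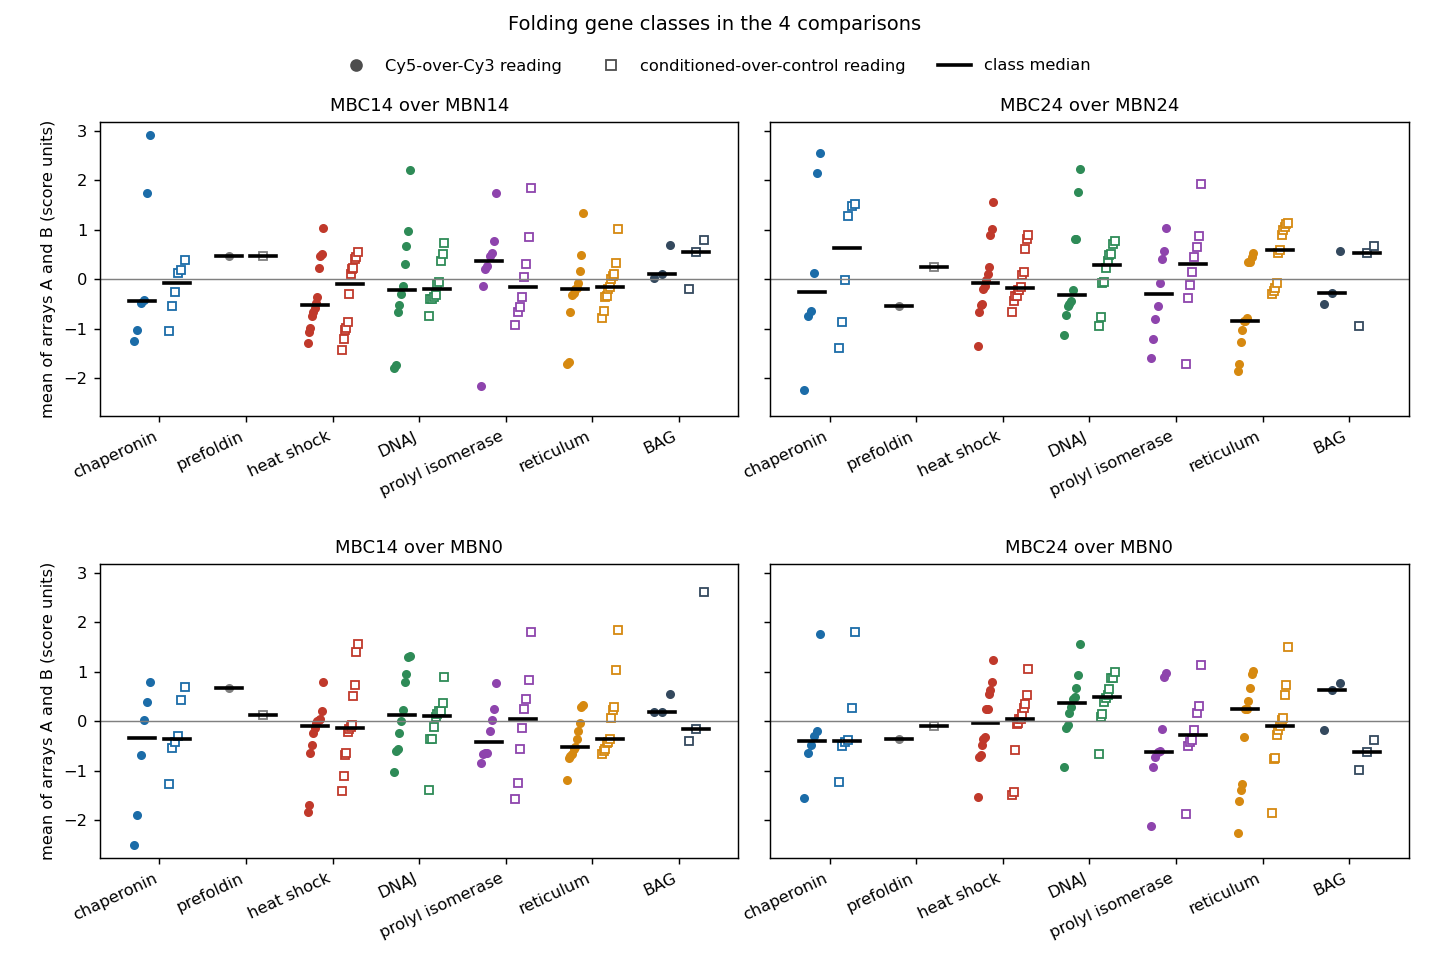
Mean of arrays A and B in score units for each folding gene by class in the 4 comparisons, as filled circles in the Cy5-over-Cy3 reading and open squares in the conditioned-over-control reading, with class medians as black bars. The reticulum median in MBC24 over MBN24 is -0.84 in the first and 0.59 in the second, while CCT2 and CCT3 stand above the other chaperonin subunits in both matched comparisons in the Cy5-over-Cy3 reading only.

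For 6 genes more than 2 spots were printed, and their separate pairs show how far values of the same gene differ. What sets the pairs apart was not tested. HSP90AA1 had a pair at 0.23 and another at -1.32 at the matched hours, a range of 1.54. HSPB7, a small heat shock protein of heart and skeletal muscle, had pairs at 1.08 and 0.05. The 5 pairs of HSPB1, the small heat shock protein HSP27, lay between -0.25 and 0.28. DNAJA1 and DNAJB12 had pairs on the same side, at -0.44 and -0.43 and at -0.30 and -0.56, and CANX had them on opposite sides, at -0.22 and 0.49. The CANX mean of 0.14 and the HSP90AA1 mean of -0.54 thus average over pairs whose matched-hour means differ in sign, while the 5 genes called by limma rest on a single pair of adjacent spots each.

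**Figure D4:**
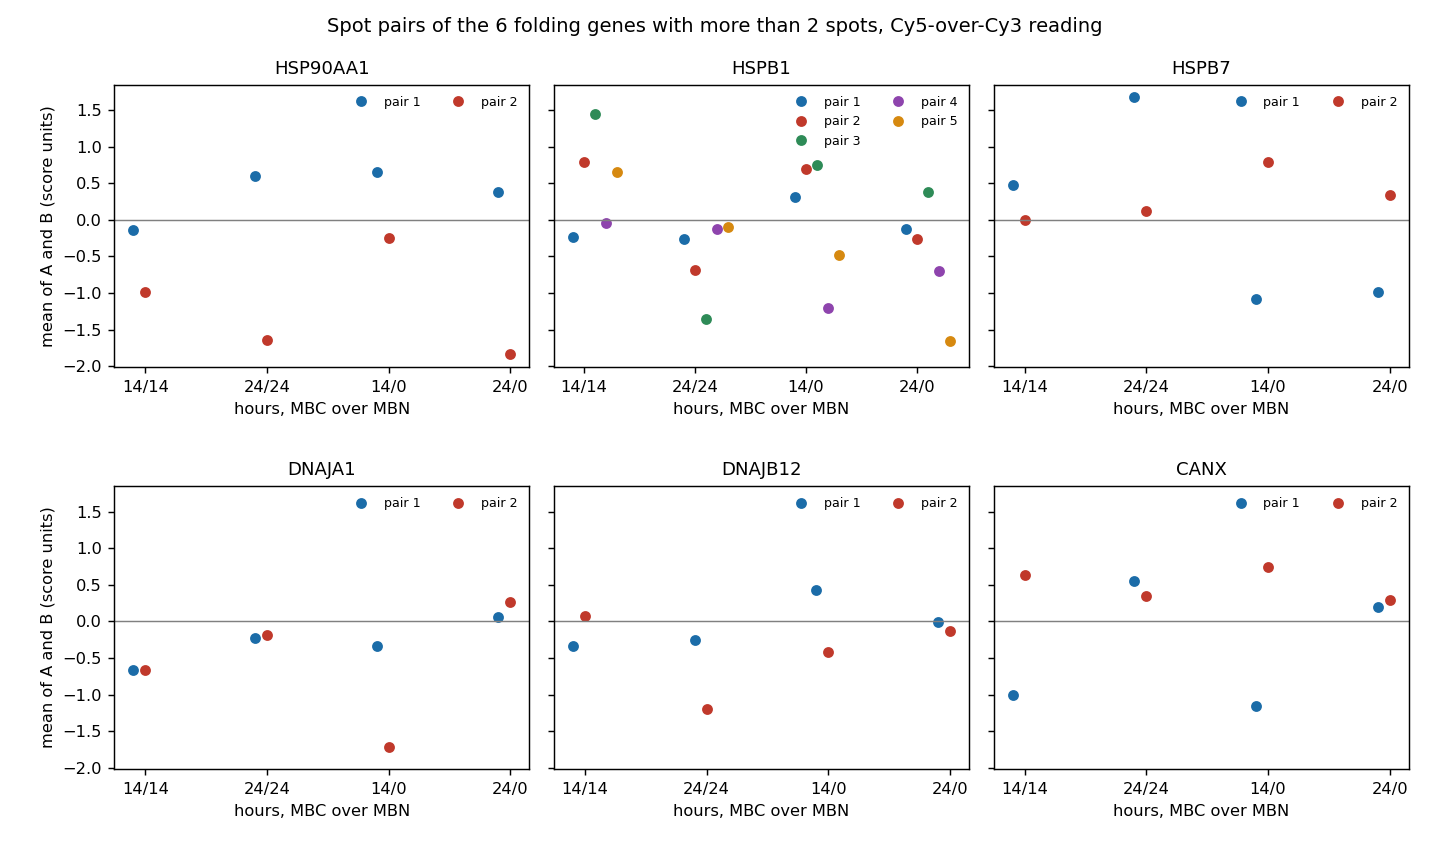
Mean of arrays A and B in score units for each pair of adjacent spots of the 6 genes with more than 2 spots, in the 4 comparisons (hours of MBC over hours of MBN), Cy5-over-Cy3 reading. The pairs of HSP90AA1 lie on opposite sides of 0 in MBC24 over MBN24 (0.60 and -1.64) and those of CANX in MBC14 over MBN14 (-1.002 and 0.64), and the 5 pairs of HSPB1 spread from -1.36 to 1.44 within the matched comparisons.

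The spots around the 3 genes that rose were high as well. The 10 spots nearest to CCT3 in the deposited table, its own left out, had a median matched-hour mean of 1.38, those nearest to CCT2 1.499, to DNAJC7 1.57 and to HSPA9 1.09. A nearest-spot median of at least 1 was found for these 4 of the 51 genes (7.84%) and for 102 of all genes (3.49%). Around HSP90B1 and PPIE the medians were -0.05 and -0.62. Over the 51 genes the nearest-spot median correlated with the matched-hour mean at 0.61, and over all genes at 0.37. Each spot was then centred on the median of 11 spots, which included itself and its paired spot of the same gene. CCT3, CCT2 and DNAJC7 kept 0.78, 0.77 and 0.55, HSP90B1 kept -1.39 and PPIE -0.83, and limma called none of them. The part of the spot neighbourhood in the calls was not tested.

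**Figure D5:**
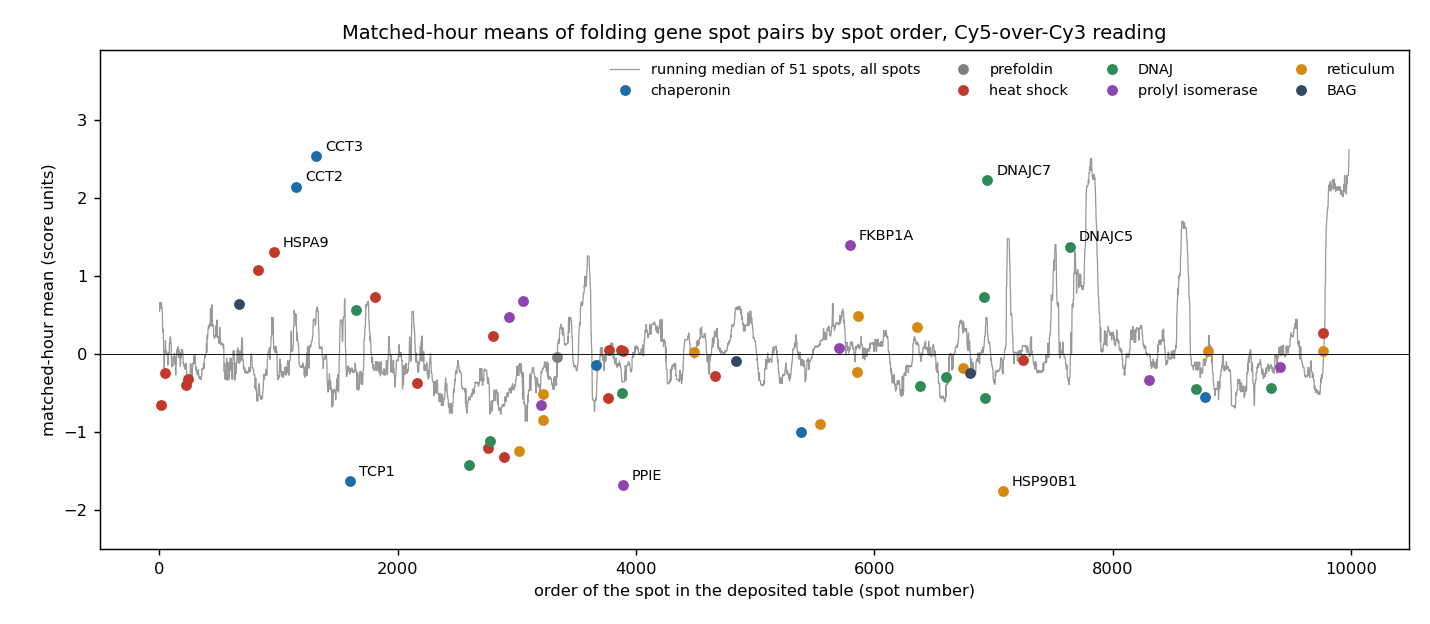
Matched-hour mean in score units of each pair of folding gene spots against its order in the deposited table, coloured by class, with the running median of 51 spots as a grey line, Cy5-over-Cy3 reading. CCT3, CCT2 and DNAJC7 lie above 2 while the running median around them is below 1, and the line exceeds 1 in several stretches elsewhere, most of all at the end of the table.

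The calls also depended on other choices. CCT3, CCT2, DNAJC7 and HSP90B1 passed the limma test in 6 of 11 alternatives each and PPIE in 5, with adjusted p-values from 0.00303 to 0.995. Tested spot by spot, the 2 spots of each gene gave values on the same side, such as 2.50 and 2.57 for CCT3 and -1.96 and -1.55 for HSP90B1, with limma adjusted p-values of 0.0616 to 0.184. On array B alone 0 genes of the set were called, and on array A alone PPIA was called in place of the 5, at 2.37 (limma adjusted p = 0.0176).

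Other folding genes were taken from a list of 98, of which 40 were measured. Of these 2 rose and 0 fell, beside 3.08% and 2.12% of all genes, and their median was -0.08. SELENOM, a selenoprotein of the reticulum, rose by 3.25 ± 0.41 (SE, n = 2; limma adjusted p = 0.00534), from 3.57 and 2.09 at 14 h and 1.76 and 5.57 at 24 h. TOR1A, an ATPase of the reticulum lumen, rose by 2.87 ± 0.66 (SE, n = 2; limma adjusted p = 0.0397), with 7.41 on array A at 14 h and 0.93 to 1.60 on the others. Next by size were TSPO (1.19), which the list holds though it is not a chaperone, TTC1 (1.18), SGTA (1.17) and TMBIM6 (1.15). None of these passed. HSF1, the heat shock factor itself, was at 0.18 and SERPINH1, the collagen chaperone, at -0.55, neither of them called (named after their values were seen). In the conditioned-over-control reading 0 of the 40 were called.

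Markers of cell types were read beside these values. Of the myoblast list 7 of 11 genes were measured and 1 rose. Blood markers had 9 of 12 measured, of which 2 rose and 1 fell, endothelial markers 5 of 7 with 1 that fell, and no measured gene of the fibroblast and smooth muscle (6 of 9), adipocyte (3 of 5) or epithelial (2 of 8) lists was called. Over all genes 3.08% rose and 2.12% fell, so the calls among the 9 blood markers were the most frequent of these lists. In the conditioned-over-control reading 0 markers of any list were called, and the part of other cell types in the values of the folding genes was not tested. The arrays give ratios and no levels, so the labelled cell type could not be checked by presence of its markers.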

How the data were processed

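The authors deposited 1 signed score per spot for each of 8 two-colour arrays; the sources used here do not state scale, log base, centring, direction or normalisation. The analysis plan assumed log2 ratios and was applied to the scores unchanged, without fold changes. Intensities were not used here, so no dim spot was left out. The number of arrays and the spread between spots limit the precision. For MBC14 over MBN0, the labelling text of array B names the dyes opposite to the dye field, which was used. Each array was centred on its median, and spots with 1 symbol in the platform annotation of 2016 (6610; 106 had several, 3268 are unnamed here) were averaged to 2922 genes. Arrays A and B were averaged to 1 value. The matched-hour test was limma 3.58.1 in R 4.3.3, two-sided, Benjamini-Hochberg over all genes, threshold 0.05, and its script was tested on simulated data. Replicate letters A and B mark dye layouts, not shared cultures. The genes, classes and lists were chosen with earlier results of these data known. Named were genes past the test, the 2 highest and 2 lowest of each class, the 3 highest and lowest past the size rule per comparison, genes past it at both matched hours, those with most spots, and the core reticulum genes; others are named as examples or as members of a count. The nearest 10 spots and the count of comparisons passed were chosen after the values were seen. Alternatives were the other reading, no centring, neighbour centring, quantile scaling, the median of spots, single spots, single arrays, a replicate block, all 4 comparisons, robust limma, other size thresholds and classes by prefix. The windows of neighbour centring held the spot itself. Protein sequences were not used here.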

Additional observations from a re-analysis of the deposited data

Results flagged for a closer look

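For 2 genes in the Cy5-over-Cy3 reading both arrays lay on one side of 0 at 14 h and both on the other at 24 h, against the matched control. DDIT3, the CHOP factor of the unfolded protein response, went from 1.35 to -1.26, a difference of -2.61. HSPB1 went from 0.52 to -0.50, a difference of -1.02, with its 5 spot pairs spread from 1.44 to -0.24 at 14 h. In the conditioned-over-control reading the same held for 5 genes, which by construction cannot be those of the first reading. BAG3 differed by -1.48 (from 0.55 to -0.94), FKBP8 by -2.02 (from 0.31 to -1.71), CANX by 1.41 (from -0.34 to 1.07), DNAJB9 by 1.90 (from -0.79 to 1.11) and HSPBP1 by 1.68 (from -0.86 to 0.82). None of these differences was tested, since each hour has a single RNA pair. Such opposite sides were found for 215 of all genes (7.36%) in the first reading and 302 (10.3%) in the second. With 2 arrays a comparison, no array can be judged to stand apart.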

How the results depend on the processing

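Against 152 genes called in all and 5 of the folding set, the conditioned-over-control reading called 0 and 0, centring on 11 neighbouring spots 2 and 0, all 4 comparisons in the fit 9 and 0, and each spot by itself 9 and 0. Quantile normalization called 230 in all, and leaving out array A or B called 0 to 128 in all and 0 to 1 of the set. In the other reading CCT2, CCT3 and DNAJC7 reversed to -0.70, -0.50 and -0.20. With a replicate block (arrays singly, comparison as a random block, all 8 arrays) 218 genes and 7 of the set were called. The block correlation was -0.12. Letters A and B mark the dye layout, so they do not pair cultures. Genes past the size rule, 14, 14, 7 and 7 in the order of the report, became 3, 7 and 4 in the other reading in MBC14 over MBN14, MBC24 over MBN24 and MBC24 over MBN0. In MBC24 over MBN24 they became 8 and 4 after centring on 51 and 11 neighbours. At a mean of at least 1.5 they were 9, 9, 4 and 4, and at log2 of 3 they were 9, 7, 4 and 3. Leaving out array A or B gave 17 to 23, 20 to 24, 18 either way, and 17 to 22. The median of the set became 0.23 and 0.016 in the other reading in MBC24 over MBN24 and MBC24 over MBN0. In the latter it was 0.041 and -0.014 after centring on 51 and 11 neighbours and -0.050 after quantile normalization. Leaving out array A or B gave medians of -0.19 to 0.15, -0.58 to 0.05, -0.11 to 0.054 and -0.18 to -0.07. Of the 46 genes not called, 21 changed sign in the other reading, 12 without array A and 7 without array B. The cause of these changes was not tested. Signal over background is unknown.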
